A study of Mus musculus with 8 samples.

Results

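Skeletal muscle genes were examined in 8 primary mouse osteosarcomas, malignant tumours of bone-forming cells that arise next to the muscles of the limb and shoulder. The set holds 32 genes, named by symbol for their place in the contractile, calcium and energy machinery of muscle fibres. All 32 were among the 19938 genes with a probe set of a single symbol, and each was read by 1 probe set. By known fibre kind, 12 were fast fibre genes, 6 slow fibre genes and 14 genes used by both kinds.

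The tumours came from C57Bl6 mice of a pair of models. In the 4 shRNA OS tumours p53 was targeted by the transgenic hairpin P53.1224, with 3 of genotype Rbfl/+ (1 floxed Rb allele; replicates 1, 3 and 4) and replicate 2 Rb+/+. In the 4 Cre:lox OS tumours both p53 alleles were floxed (P53fl/fl), again with 3 Rbfl/+ (replicates 2, 3 and 4) and replicate 1 Rb+/+. The shRNA OS tumours lay in the tibia (replicates 1, 2 and 3) and the humerus (replicate 4), and the Cre:lox OS tumours in the scapula (replicate 1), the humerus (replicate 2) and the tibia (replicates 3 and 4). The series title describes the hairpin as lineage restricted; the sources used here do not name the promoters behind the hairpin and Cre. Each tumour was hybridised to 1 array of 35556 probe sets, with array medians between 7.13 and 7.23 on the log2 scale. The least typical array was that of shRNA OS replicate 2 (mean correlation 0.9414, against 0.9608 or more for the other 7). Its values also spread least (interquartile range 2.586, against 2.786 or more for the other 7). This tumour was the lowest tumour for 18 of the 26 fast and shared genes below. After quantile normalization, which gives every array the same spread, it still had the lowest mean level of fast and of shared genes. The bone matrix genes Col1a1 (13.00 to 13.61 log2) and Ibsp (12.91 to 13.52) were high in every tumour, as the bone tumour label has it. No array of normal muscle or bone was analysed here, so levels are set between tumours and give no share of muscle RNA.

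Muscle fibres contract when calcium released from the sarcoplasmic reticulum binds troponin and frees actin for the myosin heads. Fast and slow fibres build the same apparatus from paralogous genes: separate myosin heavy and light chains, troponins and calcium pumps. Which paralogs a fibre uses depends on its developmental origin, its nerve and its use. In a bulk tumour, fewer fibres and less RNA per fibre cannot be told apart.

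Fast fibre genes were high in shRNA OS replicate 3 and Cre:lox OS replicates 1 and 3, and low in shRNA OS replicates 2 and 4 and Cre:lox OS replicate 2. For 11 of the 12 fast genes the first-named 3 were the highest of all 8 tumours. Myh4, the myosin heavy chain of the fastest (IIb) fibres, had 7.02, 6.67, 11.43 and 7.35 in shRNA OS replicates 1 to 4, against 10.15, 7.11, 9.31 and 8.17 in Cre:lox OS replicates 1 to 4 (log2 values here and throughout). Pvalb, the calcium buffer parvalbumin of fast fibres, had 6.79, 5.99, 11.22 and 6.74 in shRNA OS replicates 1 to 4, against 10.15, 6.67, 9.76 and 6.82 in Cre:lox OS replicates 1 to 4. Both genes were thus highest in shRNA OS replicate 3, next in Cre:lox OS replicates 1 and 3, and near their lowest in shRNA OS replicates 1, 2 and 4 and Cre:lox OS replicate 2. Cre:lox OS replicate 4 was among the low tumours for Pvalb (6.82) and between high and low for Myh4 (8.17). The range over the tumours was 5.24 for Pvalb, the widest of the 32 genes, against a median range of 0.79 over all 19938 genes.

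The fast myosins did not share 1 order. Myh1, of IIx fibres, had 6.39, 6.53, 9.53 and 6.72 in shRNA OS replicates 1 to 4, against 9.45, 6.88, 9.83 and 8.10 in Cre:lox OS replicates 1 to 4. Myh2, of the more oxidative IIa fibres, had 8.81, 7.17, 8.81 and 8.0 in shRNA OS replicates 1 to 4, against 9.57, 7.64, 10.56 and 9.21 in Cre:lox OS replicates 1 to 4. Myh2 was the exception among the 12 fast genes: shRNA OS replicate 3, which led for Myh4, was below Cre:lox OS replicates 1, 3 and 4 and level with shRNA OS replicate 1. The heavy chain genes are similar in sequence, so the probe sets may share signal.

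Each remaining fast gene peaked in one of a pair of tibial tumours, replicate 3 of either model. Myl1, a fast myosin light chain, had 9.84, 8.11, 11.23 and 7.67 in shRNA OS replicates 1 to 4, against 12.05, 9.04, 12.11 and 10.91 in Cre:lox OS replicates 1 to 4. Atp2a1, the fast calcium pump SERCA, had 8.88, 7.34, 11.85 and 8.67 in shRNA OS replicates 1 to 4, against 11.03, 8.56, 11.27 and 9.66 in Cre:lox OS replicates 1 to 4. In both, the values of Cre:lox OS replicate 4 lay between the high and the low tumours. The fast troponins Tnnt3 (7.95 to 11.31), Tnnc2 (7.04 to 10.28) and Tnni2 (7.88 to 10.28), the light chain Mylpf (6.25 to 8.76) and the Z-disc protein gene Myoz1 (6.57 to 9.32) were each highest in shRNA OS replicate 3. Actn3, the Z-disc actinin of fast fibres, had 10.72 in shRNA OS replicate 3 and 10.79 in Cre:lox OS replicate 3, with a lowest value of 7.29.

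**Figure D1:**
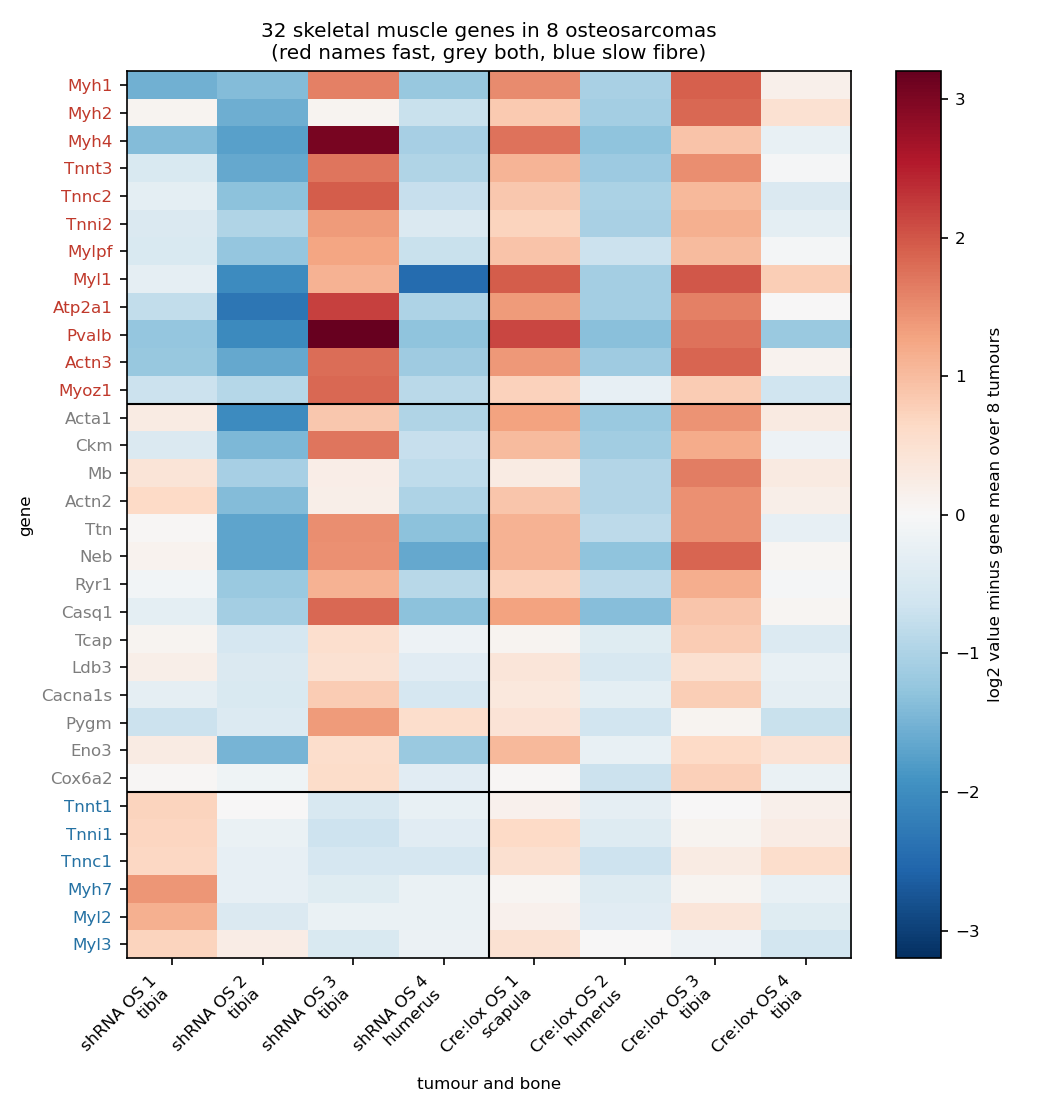
Each cell is a gene's log2 value in 1 tumour minus that gene's mean over the 8 tumours; rows are the 32 genes by fibre kind and columns the tumours with their bone, shRNA OS left of Cre:lox OS. The fast and shared rows are red in shRNA OS replicate 3 and Cre:lox OS replicates 1 and 3, and the slow rows are reddest in shRNA OS replicate 1.

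Slow fibre genes went another way. All 6 were highest in shRNA OS replicate 1, a tibial tumour with low Myh4 and Myh1. Myh7, the slow myosin heavy chain shared with heart, had 8.51, 6.82, 6.70 and 6.87 in shRNA OS replicates 1 to 4, against 7.15, 6.67, 7.18 and 6.85 in Cre:lox OS replicates 1 to 4. Myl2, the slow regulatory light chain, had 7.06, 5.47, 5.71 and 5.73 in shRNA OS replicates 1 to 4, against 6.06, 5.57, 6.31 and 5.54 in Cre:lox OS replicates 1 to 4. In both genes 1 tumour stood above the other 7, by 1.34 for Myh7 and 0.75 for Myl2.

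The slow troponins separated the tumours less. Tnnc1, the slow and cardiac troponin C, had 8.23, 7.31, 7.03 and 7.04 in shRNA OS replicates 1 to 4, against 8.07, 6.91, 7.83 and 8.13 in Cre:lox OS replicates 1 to 4. Tnni1, the slow inhibitory troponin, had 7.72 in shRNA OS replicate 1 and 7.67 in Cre:lox OS replicate 1, and 6.36 in shRNA OS replicate 3, its lowest. Tnnt1 ran from 6.04 in shRNA OS replicate 3 to 7.25 in shRNA OS replicate 1, and the slow light chain Myl3 from 6.83 in Cre:lox OS replicate 4 to 8.12 in shRNA OS replicate 1. The ranges of the 6 slow genes, 1.21 to 1.84 with a median of 1.35, were narrower than those of the fast genes, 2.40 to 5.24 with a median of 3.41. Many slow gene values lay near or under the array medians (7.13 to 7.23), with Myl2 at 5.47 to 7.06 and Tnnt1 at 6.04 to 7.25. Tnnc1 (6.91 to 8.23) and Myl3 reached above them. Whether signal near background narrowed the slow ranges was not tested. Of 12 cardiac genes, 10 had ranges of 0.41 to 0.82 over the tumours, among them Myh6 (5.66 to 6.14). The other two, which also stand in the list of embryonic muscle genes, were Tnnt2 (range 1.74) and Myl4 (range 2.26).

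Most of the genes sorted here as used by both fibre kinds followed the fast genes. In 10 of the 14 the 3 highest tumours were again shRNA OS replicate 3 and Cre:lox OS replicates 1 and 3. Acta1, skeletal alpha-actin, had 10.77, 8.50, 11.38 and 9.55 in shRNA OS replicates 1 to 4, against 11.81, 9.33, 11.96 and 10.81 in Cre:lox OS replicates 1 to 4. Ckm, the muscle creatine kinase, had 8.91, 7.93, 11.07 and 8.62 in shRNA OS replicates 1 to 4, against 10.37, 8.26, 10.54 and 9.21 in Cre:lox OS replicates 1 to 4. shRNA OS replicate 1 and Cre:lox OS replicate 4 were intermediate for both genes, and the groups overlapped throughout.

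The giant filament genes Ttn (7.31 to 10.49) and Neb (7.57 to 11.12), the calcium release channel Ryr1 (6.84 to 9.19), its store protein Casq1 (6.56 to 9.76) and the voltage sensor Cacna1s (6.65 to 7.99) kept those 3 tumours on top. So did the Z-disc gene Ldb3 (7.19 to 8.21) and the enolase of muscle, Eno3 (8.20 to 10.73), and Cox6a2, a muscle subunit of cytochrome oxidase, had 7.91 to 9.36. Mb, the oxygen carrier myoglobin of oxidative fibres, had 9.71, 8.22, 9.51 and 8.47 in shRNA OS replicates 1 to 4, against 9.55, 8.36, 10.94 and 9.57 in Cre:lox OS replicates 1 to 4. The second highest tumour for Mb was shRNA OS replicate 1, where the slow genes were highest. For Actn2, the Z-disc actinin of all fibres (9.02), and Tcap, the titin cap (7.04), shRNA OS replicate 1 was also among the 3 highest tumours. Pygm, the glycogen phosphorylase of muscle, had its second highest value in shRNA OS replicate 4 (9.64 against 10.44 in shRNA OS replicate 3), a tumour that was low for the contractile genes.

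As a level for each tumour, the log2 values were centred on each gene's mean over the 8 tumours and averaged over the genes of a kind. The fast level was -0.73, -1.57, 1.76 and -1.05 in shRNA OS replicates 1 to 4, against 1.27, -1.02, 1.44 and -0.11 in Cre:lox OS replicates 1 to 4. The slow level was 0.88, -0.16, -0.47 and -0.29 in shRNA OS replicates 1 to 4, against 0.33, -0.35, 0.11 and -0.04 in Cre:lox OS replicates 1 to 4. So the tumour with the highest slow level, shRNA OS replicate 1, was below the mean for fast genes. The tumour with the highest fast level, shRNA OS replicate 3, had the lowest slow level by a small margin. Its -0.47 was close to -0.35 in Cre:lox OS replicate 2 and -0.29 in shRNA OS replicate 4. It was the lowest tumour for 2 of the 6 slow genes, as was Cre:lox OS replicate 2. The cardiac genes also had their lowest mean level in shRNA OS replicate 3 (-0.23). Whether dim genes read low on that array was not tested.

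**Figure D2:**
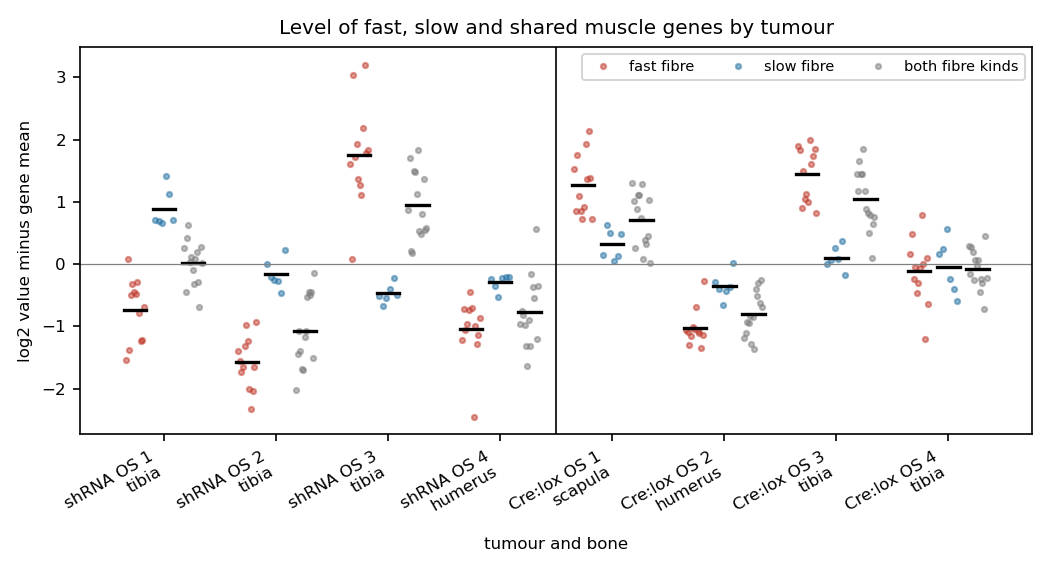
Points are single genes (log2 value minus the gene's mean over 8 tumours) and black bars the mean of the 12 fast, 6 slow and 14 shared genes in each tumour, shRNA OS left of Cre:lox OS. Fast and shared bars move together over the tumours; the highest slow bar, 0.88, is in shRNA OS replicate 1.

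The shared level was 0.01, -1.08, 0.94 and -0.77 in shRNA OS replicates 1 to 4, against 0.71, -0.80, 1.05 and -0.07 in Cre:lox OS replicates 1 to 4. Fast minus slow level was 2.23 in shRNA OS replicate 3, 1.34 in Cre:lox OS replicate 3 and 0.95 in Cre:lox OS replicate 1. It was near 0 in Cre:lox OS replicate 4 (-0.07), -0.66 in Cre:lox OS replicate 2 and -0.76 in shRNA OS replicate 4, and lowest in shRNA OS replicates 2 (-1.41) and 1 (-1.62). Each tumour was read by 1 array, so neighbours in this order have no error of their own and were not tested against each other. As a description over the same 8 arrays, the correlation between single genes had a median of 0.93 over the 66 fast pairs, 0.69 over the 15 slow pairs and -0.01 over the 72 pairs of a fast and a slow gene. It was 0.87 for fast with shared genes and 0.18 for slow with shared genes. Many slow gene values lay near or under the array medians, which limits what their order and correlations can show.

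**Figure D3:**
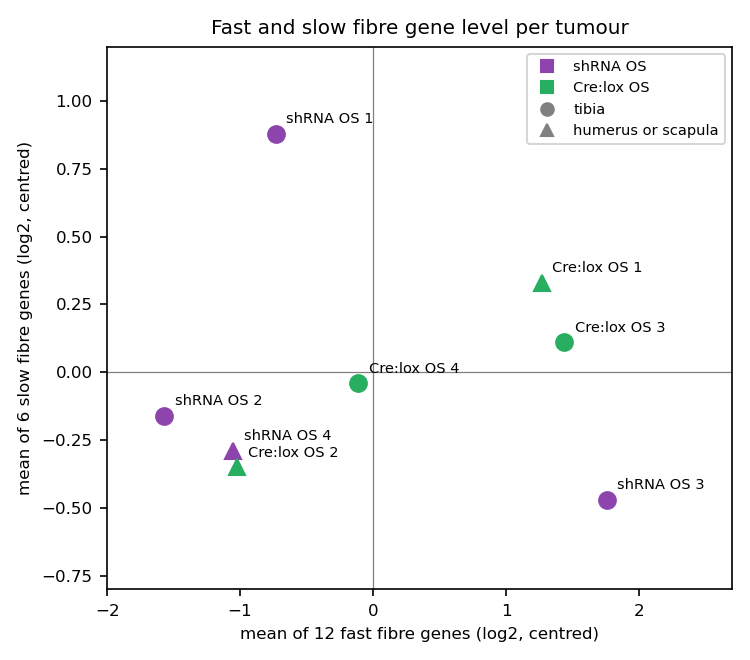
Each point is 1 tumour, placed by the mean of its 12 fast genes (x axis) and of its 6 slow genes (y axis), both log2 and centred per gene; colour gives the model and shape the bone. shRNA OS replicate 1 stands at the top left (-0.73, 0.88) and shRNA OS replicate 3 at the bottom right (1.76, -0.47).

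Promoter sequence was read for the genes whose values varied together, since muscle genes are known targets of the MyoD family, which binds E-boxes such as CAGCTG and CAGGTG, of MEF2, and of SRF, which binds CArG boxes. RefSeq windows (GRCm38.p6) were held for 25 of the 32 genes, 32 windows in all, and the 250 bases before each start site were searched on both strands. CAGCTG was found in 14 of the 32 windows (43.8%) against 13.0% of all 32851 windows, and CAGGTG in 7 (21.9%) against 17.2%. MEF2 motifs were in 4 windows (12.5% against 2.92%) and CArG boxes in 5 (15.6% against 1.47%), some of them in overlapping windows of 1 gene. A match is a stretch of letters, not a measured binding site.

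The windows below, chosen because they hold a match, belong to Myh4 (chr11:67237562-67237811, plus strand), Atp2a1 (chr7:126463074-126463323, minus strand) and Mylpf (chr7:127211358-127211607, plus strand), whose values varied over the tumours with those of Ckm (chr7:19410844-19411093, plus strand). They run 5′ to 3′ with the motifs in capitals.
Myh4: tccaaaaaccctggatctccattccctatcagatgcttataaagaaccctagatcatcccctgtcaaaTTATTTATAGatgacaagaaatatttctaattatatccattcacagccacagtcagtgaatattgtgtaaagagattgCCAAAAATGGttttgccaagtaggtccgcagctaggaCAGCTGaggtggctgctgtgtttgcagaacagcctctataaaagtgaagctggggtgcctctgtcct
Atp2a1: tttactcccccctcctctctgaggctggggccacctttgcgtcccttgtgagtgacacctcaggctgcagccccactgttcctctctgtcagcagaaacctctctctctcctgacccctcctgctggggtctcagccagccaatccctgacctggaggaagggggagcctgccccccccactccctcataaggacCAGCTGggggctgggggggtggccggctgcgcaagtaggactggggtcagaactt
Mylpf: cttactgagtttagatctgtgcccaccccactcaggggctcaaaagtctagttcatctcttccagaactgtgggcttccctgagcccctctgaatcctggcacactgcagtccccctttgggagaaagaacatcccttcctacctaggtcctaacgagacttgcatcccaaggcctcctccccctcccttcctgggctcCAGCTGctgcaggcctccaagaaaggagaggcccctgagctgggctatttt
Ckm: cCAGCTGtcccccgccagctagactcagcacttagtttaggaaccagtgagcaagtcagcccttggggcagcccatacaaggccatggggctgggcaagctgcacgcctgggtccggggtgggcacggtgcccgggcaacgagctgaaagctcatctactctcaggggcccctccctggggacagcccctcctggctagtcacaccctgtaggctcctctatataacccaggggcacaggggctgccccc
Positions are given as the first base of a motif relative to the start site, negative before it. Each of these 4 windows holds CAGCTG, at -67 in Myh4, -55 in Atp2a1, -51 in Mylpf and -249 in Ckm. The Myh4 window also holds a MEF2 motif at -182 and a CArG box at -104.

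For comparison, slow genes that were highest in shRNA OS replicate 1 are shown: Tnni1 (chr1:135799171-135799420, plus strand, the first of 2 windows), Tnnt1 (chr7:4515976-4516225, minus strand) and Myl3 (chr9:110763428-110763677, plus strand), again with motifs in capitals.
Tnni1: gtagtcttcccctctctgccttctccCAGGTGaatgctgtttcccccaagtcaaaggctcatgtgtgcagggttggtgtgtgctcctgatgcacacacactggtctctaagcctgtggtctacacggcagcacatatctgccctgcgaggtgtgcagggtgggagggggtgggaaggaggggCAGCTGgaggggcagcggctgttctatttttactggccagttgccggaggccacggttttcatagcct
Tnnt1: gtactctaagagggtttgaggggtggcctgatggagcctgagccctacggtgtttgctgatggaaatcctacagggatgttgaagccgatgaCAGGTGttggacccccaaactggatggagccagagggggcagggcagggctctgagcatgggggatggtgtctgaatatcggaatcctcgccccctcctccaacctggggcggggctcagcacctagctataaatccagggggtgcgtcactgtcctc
Myl3: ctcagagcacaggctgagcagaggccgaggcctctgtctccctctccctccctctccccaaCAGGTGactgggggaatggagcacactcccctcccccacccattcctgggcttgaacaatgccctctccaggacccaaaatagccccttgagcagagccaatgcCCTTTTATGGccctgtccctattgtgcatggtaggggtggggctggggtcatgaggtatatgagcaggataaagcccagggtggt
All 3 hold CAGGTG, at -224 in Tnni1, -158 in Tnnt1 and -189 in Myl3. CAGCTG stood at -68 in Tnni1 and a CArG box at -85 in Myl3. Myl3 was taken in place of Myh7, whose first window held no match. CAGCTG was in 4 of 9 fast windows and 3 of 9 slow windows, and CAGGTG in 1 of 9 fast and 4 of 9 slow windows. MEF2 motifs were in 3 of 9 fast windows and 0 of 9 slow windows, counts too small to set fast against slow.

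The comparison of the models asks whether tumours that arose with a p53 hairpin differ from those with floxed p53 alleles. No skeletal muscle gene passed limma's test, 0 of 32 at an adjusted p under 0.05 (and 0 with eBayes trend and robust), where 0.0201% of all genes passed. At an unadjusted p under 0.05 the count was also 0 of 32, against 9.63% of all genes. That count rested on single tumours: among shRNA OS tumours, dropping replicate 3 gave 9 of 32 and replicate 1 gave 1, and dropping Cre:lox OS replicate 2 gave 6, with 0 past the adjusted threshold each time. In none of the 32 did the models separate, against 3.44% of all genes with every shRNA OS tumour lower and 2.0% with every shRNA OS tumour higher. Means were lower in shRNA OS for 27 of the 32 genes, against 48.1% of all genes, with a median difference of -0.49 (log2, shRNA OS minus Cre:lox OS) against 0.01 over all genes. The fast and shared genes among them varied together over the tumours, so these 27 are not independent observations.

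Myl1 had the smallest p, with 9.21 ± 1.64 in shRNA OS and 11.03 ± 1.43 in Cre:lox OS (log2, SD, n = 4 each), a difference of -1.82 (SE 0.87, limma adjusted p = 0.55). Eno3 followed at -0.94 (SE 0.47, limma adjusted p = 0.568). Myh2 stood at -1.05 (SE 0.58), Myh1 at -1.27 (SE 0.80), Actn3 at -1.10 (SE 0.83), Acta1 at -0.92 (SE 0.71) and Atp2a1 at -0.94 (SE 0.91). Leaving out 1 tumour moved several of these by over 1.5 times. Dropping shRNA OS replicate 3 gave -1.83 for Atp2a1 and -1.88 for Actn3, while dropping shRNA OS replicate 2 gave -0.33 for Atp2a1 and -0.41 for Acta1. Dropping Cre:lox OS replicate 2 gave -1.47 for Acta1 and -1.59 for Myh2, while dropping Cre:lox OS replicate 3 gave -0.67 for Actn3 and -0.61 for Myh2. For Myh4 (-0.57, SE 1.03) and Pvalb (-0.66, SE 1.20) the standard error exceeded the difference. All 12 fast genes had lower means in shRNA OS, from -1.82 to -0.22, but in Rbfl/+ tumours alone 5 of them had higher means there: Myh4 (0.40), Pvalb (0.50), Tnnc2 (0.43), Tnni2 (0.22) and Myoz1 (0.11). Without shRNA OS replicate 2, Tnnc2 (0.18) and Tnni2 (0.03) also changed sign. The slow genes were 3 higher and 3 lower, from -0.33 for Tnnc1 to 0.27 for Myh7. Tcap (-0.03), Ldb3 (-0.07), Cox6a2 (0.05) and Tnnt1 (-0.02) differed least.

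The spread between tumours of 1 model was as wide as between models. The fast level averaged -0.40 ± 1.48 in shRNA OS and 0.40 ± 1.17 in Cre:lox OS (centred log2, SD, n = 4 each). The slow level averaged -0.01 ± 0.61 in shRNA OS and 0.01 ± 0.28 in Cre:lox OS. Without shRNA OS replicate 3 the median difference of the 32 genes was -0.99, and without shRNA OS replicate 2 it was -0.18. Among the Rbfl/+ tumours alone, 3 against 3, it was -0.02, with 17 of the 32 genes lower in shRNA OS. That comparison leaves out Cre:lox OS replicate 1, high in fast genes, and shRNA OS replicate 2, low in them.

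**Figure D4:**
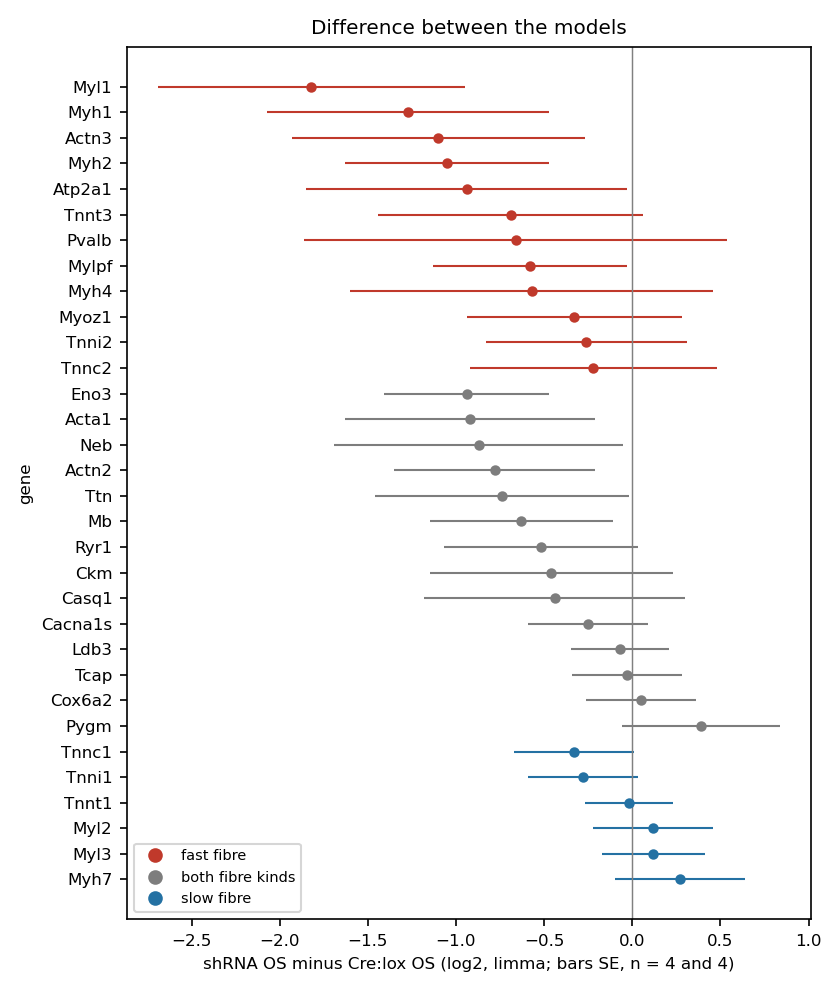
Points are the difference between the models (log2, shRNA OS minus Cre:lox OS) for each of the 32 genes and bars its standard error from limma (4 tumours each); colour gives the fibre kind. All 12 fast genes lie left of 0 with wide bars, though 5 of them changed sign in Rbfl/+ tumours alone, and the 6 slow genes lie between -0.33 and 0.27.

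The labels also give the bone, and 5 tibial tumours were set against the 3 of other bones in a fit that also held the model. None of the 32 genes passed limma's test, where 0.0% of all genes passed, and 0 of 32 had an unadjusted p under 0.05 against 5.64% of all genes. At that unadjusted threshold the count was 6 of 32 when Cre:lox OS replicate 1 was dropped. It was 2 of 32 when either shRNA OS replicate 2 or replicate 4 of the Cre:lox OS tumours was dropped. The sites did not separate for any of the 32, against 0.607% of all genes with every tibial tumour higher and 2.0% with every tibial tumour lower. Estimates were higher in tibial tumours for 30 of the 32 genes against 44.5% of all genes, with a median of 0.54 (log2, tibial minus other) against -0.03 over all genes. Mb had the smallest p, with 9.59 ± 0.96 in tibial tumours (SD, n = 5) and 8.79 ± 0.65 in the others (SD, n = 3), and a model-adjusted difference of 1.03 (SE 0.46, limma adjusted p = 0.895). Myl1 stood at 1.43 (SE 0.83) and Tnnc1, the slow gene of smallest p, at 0.49 (SE 0.34).

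Within 1 site the tumours differed as much. Tibial tumours held the highest fast level (1.76, shRNA OS replicate 3) and the lowest (-1.57, shRNA OS replicate 2). The humeral tumours of both models were low, at -1.05 in shRNA OS replicate 4 and -1.02 in Cre:lox OS replicate 2, while the scapular tumour, Cre:lox OS replicate 1, stood at 1.27. Without Cre:lox OS replicate 1 the median site difference of the 32 genes was 1.08, and without Cre:lox OS replicate 2 it was 0.18. Macrophage markers also had higher estimates in tibial tumours, 10 of 11 with a median of 1.19. Of the 11, 10 had an unadjusted p under 0.05, against 5.64% of all genes. None passed limma's test (smallest adjusted p = 0.647), and markers of 1 cell type are not independent observations. The part of macrophage markers in the muscle values was not tested.

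Other muscle genes were read from 6 lists, none of which had a member past the limma threshold in either comparison and either direction. Over all genes 0.0201% passed by model and 0.0% by site. Means were lower in shRNA OS for 48.1% of all genes, the share to set beside the counts below. Genes of 1 list can vary together, so those counts are not independent observations. In the list of other sarcomere and Z-disc genes 22 of 29 had lower means in shRNA OS (median -0.33). Its 3 highest tumours were those of the fast genes: Cre:lox OS replicates 3 (0.70) and 1 (0.54) and shRNA OS replicate 3 (0.34). In this list shRNA OS replicate 1, low in fast genes, stood at 0.09. The smallest p there was that of Hspb7, a small heat shock protein of muscle (-1.03, SE 0.38, limma adjusted p = 0.419). Hspb7 itself did not run with the fast genes. Its highest value was in Cre:lox OS replicate 2 (10.87), and shRNA OS replicate 4 (9.85) was above shRNA OS replicate 3 (9.68). Excitation-contraction coupling genes were 9 lower and 8 higher in shRNA OS (median -0.10), led by the calcium-binding protein gene Hrc (0.75, SE 0.28, limma adjusted p = 0.43). Muscle metabolism genes were lower in 16 of 19 (median -0.13), led by the glycolytic Pgk1 (-1.10, SE 0.22, limma adjusted p = 0.156), which all cells use.

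Genes of embryonic and regenerating muscle had another pattern. Their mean level was -0.06, -0.33, -0.31 and -0.30 in shRNA OS replicates 1 to 4, against 0.62, -0.36, 0.34 and 0.40 in Cre:lox OS replicates 1 to 4. Myh3, the embryonic myosin heavy chain, had 5.97, 5.72, 5.38 and 5.62 in shRNA OS replicates 1 to 4, against 7.40, 5.67, 6.31 and 6.49 in Cre:lox OS replicates 1 to 4. The scapular Cre:lox OS replicate 1 thus had the highest Myh3. The lowest value was in shRNA OS replicate 3, the tumour with the highest Myh4. It was close to those of shRNA OS replicates 2 and 4 and Cre:lox OS replicate 2. These low values lay under the array medians (7.13 to 7.23), so their order says little. Chrna1, the acetylcholine receptor alpha subunit, had 7.82, 6.56, 6.47 and 6.48 in shRNA OS replicates 1 to 4, against 8.46, 7.07, 8.80 and 8.31 in Cre:lox OS replicates 1 to 4. These 2 genes were picked after their values were seen.

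Of the 12 genes in that list 10 had lower means in shRNA OS (median -0.40), against 48.1% of all genes. In limma's test 5 of the 12 had an unadjusted p under 0.05, against 9.63% of all genes, and 0 passed the adjusted threshold. Tnnt2, the cardiac and embryonic troponin T, had the smallest p, with 7.77 ± 0.31 in shRNA OS and 9.02 ± 0.40 in Cre:lox OS (SD, n = 4 each), a difference of -1.25 (SE 0.23, limma adjusted p = 0.134), and its groups did not overlap. Among the 8 neuromuscular junction genes 7 had lower means in shRNA OS, led by the receptor subunit Chrnb1 (-0.94, SE 0.25, limma adjusted p = 0.244). Among 11 myogenic regulators 4 had lower and 7 higher means, led by Myf6 (-1.17, SE 0.51, limma adjusted p = 0.507), the regulator kept on in mature fibres. Myf6 had 6.46, 6.11, 7.07 and 6.09 in shRNA OS replicates 1 to 4, against 7.98, 6.11, 8.92 and 7.39 in Cre:lox OS replicates 1 to 4, while Myod1, which starts the myogenic programme, ran from 6.66 to 7.28.

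The 10 genes outside the set whose profile was most like the mean of the 32 genes had correlations with it of 0.951 to 0.993 over the 8 tumours. They were Trdn (triadin, of the calcium release complex), Xirp2, Nrap, Ankrd23, Mypn, Mybpc1, Tmod4, Myot, Eef1a2 and Alpk3, of which 5 stand in the lists above. Xirp2, an actin-binding repeat protein of muscle, had 8.36, 6.22, 9.84 and 6.49 in shRNA OS replicates 1 to 4, against 9.59, 6.55, 9.90 and 7.67 in Cre:lox OS replicates 1 to 4. They were ranked for likeness, so the correlations are a description.

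Markers of other cell types were averaged by list in the same way. Cardiac genes had levels of -0.23 to 0.05 in shRNA OS and -0.15 to 0.24 in Cre:lox OS (12 genes), and satellite cell genes -0.01 to 0.16 in shRNA OS and -0.20 to 0.16 in Cre:lox OS (8 genes). The satellite cell level is a mean over genes that differed in pattern: the muscle stem cell factor Pax7 had a range of 0.37, and Cdh15 1.63, Calcr 2.74 and Megf10 2.89. Smooth muscle and pericyte genes lay between -0.10 and 0.12 in shRNA OS and between -0.32 and 0.25 in Cre:lox OS. Adipocyte genes lay between -0.12 and 0.23 in shRNA OS and between -0.28 and 0.24 in Cre:lox OS, and Schwann cell and nerve genes between -0.16 and 0.03 in shRNA OS and between -0.16 and 0.23 in Cre:lox OS. Tendon genes were highest in shRNA OS replicates 3 (0.46) and 4 (0.45), of which the second was low in muscle genes. Endothelial genes lay between -0.19 and 0.43 in shRNA OS and between -0.67 and 0.37 in Cre:lox OS.

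Macrophage genes lay between -1.08 and 0.65 in shRNA OS and between -0.44 and 0.99 in Cre:lox OS (11 genes). All 11 means were lower in shRNA OS, against 48.1% of all genes. Osteoblast genes lay between 0.17 and 0.52 in shRNA OS and between -0.65 and 0.07 in Cre:lox OS (7 of 10 listed genes measured). That difference was largest in Phex, a protease-family gene of bone cells. It had 11.64 ± 0.39 in shRNA OS and 8.32 ± 1.75 in Cre:lox OS (log2, SD, n = 4 each). The difference was 3.32 (SE 0.72, limma adjusted p = 0.192) without overlap. Dmp1 (1.15, SE 0.33, limma adjusted p = 0.294) and Sp7 (0.54, SE 0.21, limma adjusted p = 0.449) were also higher in shRNA OS, Sp7 without overlap. Col1a1 (-0.06), Col1a2 (-0.04) and Ibsp (0.13) differed by less than their standard errors. The part of macrophage and osteoblast genes in the muscle differences was not tested.

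**Figure D5:**
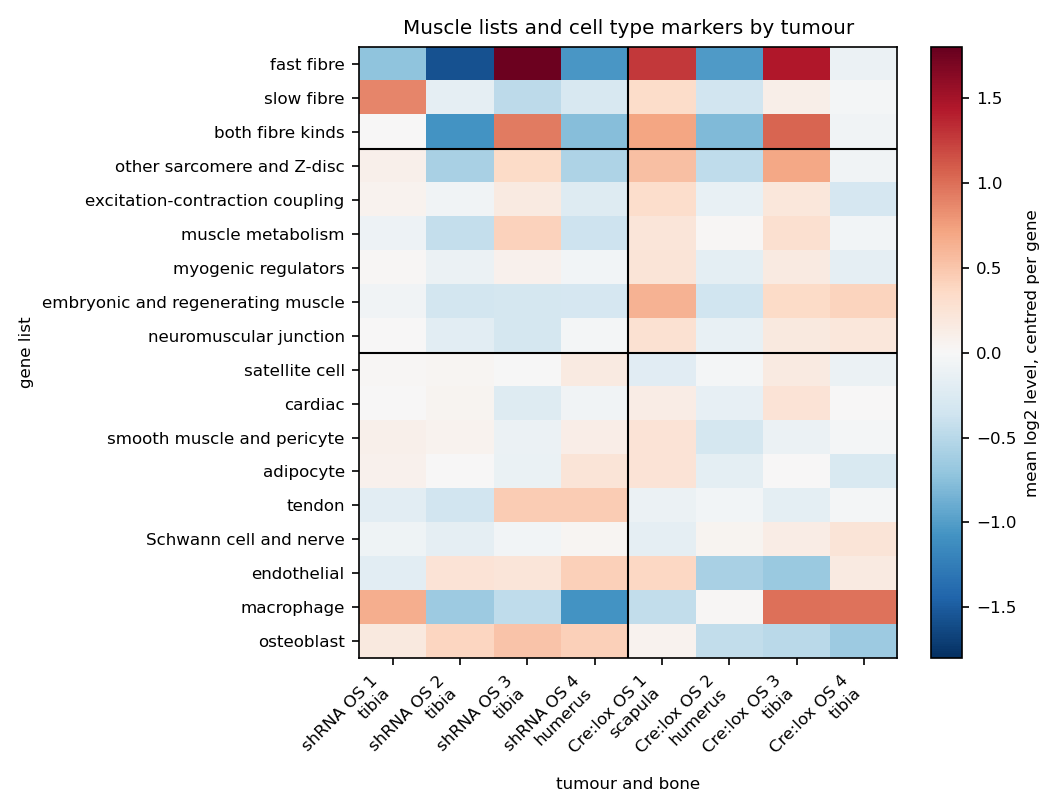
Each cell is the mean centred log2 level of a gene list in 1 tumour, shRNA OS left of Cre:lox OS; lines set off the 3 fibre groups, the 6 other muscle lists and the cell type markers. Other sarcomere genes are highest in the same 3 tumours as the fast row, in another order, while embryonic genes are highest in Cre:lox OS replicate 1 (0.62).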

How the data were processed

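RNA of 8 tumours, homogenised in Trizol and purified on RNeasy columns, was measured on arrays of 1 colour. Expression was deposited on the log2 scale, made by the authors with RMA, per the submitters' processing notes, which name the build mm9. The RMA version is not given in the sources used here. Of 35556 probe sets, 21789 had 1 gene symbol in the platform annotation, giving 19938 genes, each represented by its probe set of highest mean. The number of arrays limits the precision, and signal over background was not analysed here.

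Groups came from the model in the labels, and replicate numbers (accession order) pair no samples. The titles number each tumour separately. Nothing else says whether samples were independent, so p-values measure the spread between these samples. Differences were tested over all genes with limma 3.58.1 (R 4.3.3, lmFit and eBayes, Benjamini-Hochberg, threshold 0.05), checked on simulated data. The members and lists were chosen with earlier results of these data known. All 32 members are named. Of each of the 6 other muscle lists the gene of smallest p between the models is named, as none passed; other genes named from the lists were chosen after their values were seen. Alternatives were quantile normalization, median centring, leaving out genes below the 25th percentile, the mean of probe sets, eBayes with trend and robust, covariates, subsets of tumours, and leaving out each tumour.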

Additional observations from a re-analysis of the deposited data

Results flagged for a closer look

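In each model the most distant of the 4 tumours was compared with the nearest other by the gap over the group's range, which chance makes large in about 1 of 20 groups. Of 74 such tests, over the 32 genes and the 5 levels (fast, slow, shared, fast minus slow, all), 7 were large, where chance gives about 3.7, and the genes of a tumour move together. In shRNA OS replicate 3, 5 fast genes lay far above the other 3 shRNA OS tumours: Myh1 at 9.53 with the next at 6.72, Myh4 at 11.43 with the next at 7.35, Pvalb at 11.22 with the next at 6.79, Actn3 at 10.72 with the next at 7.80, and Myoz1 at 9.32 with the next at 6.80. In shRNA OS replicate 1 the slow genes Myh7, at 8.51 with the next at 6.87, and Myl2, at 7.06 with the next at 5.73, stood apart in the same way. No Cre:lox OS tumour did so for any of these genes or levels.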

How the results depend on the processing

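The skeletal muscle genes called stayed at 0 of 32 by model and by site in every alternative run that tested them. Without dim genes 31 of the 32 were tested. The fast, slow and shared levels of the tumours moved by less than 1 SD with quantile normalization, median centring and the median over genes, and did not move with the mean of probe sets, since each gene has 1. Over all genes, the 4 that differed between the models became 8 with quantile normalization, 2 with median centring or in tibial tumours alone, 13 with site as a covariate, 9 in Rbfl/+ tumours alone, and 0 to 42 when 1 tumour was left out. Among shRNA OS tumours, dropping replicate 1 gave 42, replicate 2 gave 7, and replicate 3 or 4 gave 0. Among Cre:lox OS tumours, dropping replicate 1 gave 19, replicate 3 gave 0, and replicate 2 or 4 gave 1. They became 0 of 19906 (1556 at an unadjusted p under 0.05) with the mean level of the 32 genes as a covariate and those genes left out, an alternative chosen after seeing the data that spends a degree of freedom. By site, 0 genes became 0 to 1 when 1 tumour was left out, the 1 arising when either humeral tumour was dropped. The median difference of the 32 genes ran from -0.99 to -0.18 by model and from 0.18 to 1.08 by site on leaving out 1 tumour.

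In Rbfl/+ tumours alone 10 genes changed sign between the models: Myh4 (0.40), Tnnc2 (0.43), Tnni2 (0.22), Pvalb (0.50), Myoz1 (0.11), Tnnt1 (0.02), Ckm (0.20), Casq1 (0.20), Tcap (0.16) and Ldb3 (0.18). Cox6a2 did so with site as a covariate (-0.09) and in tibial tumours alone (-0.12). Leaving out 1 tumour gave ranges across 0 for Tnnc2 (-0.90 to 0.18), Tnni2 (-0.75 to 0.08), Tnnt1 (-0.25 to 0.15), Tcap (-0.22 to 0.24), Ldb3 (-0.26 to 0.08), Cox6a2 (-0.17 to 0.32), Myh7 (-0.16 to 0.44), Myl2 (-0.24 to 0.30) and Myl3 (-0.09 to 0.31). The last 3 turned negative without shRNA OS replicate 1, and Myl3 also without Cre:lox OS replicate 4 (-0.05). The cause was not tested. No paired analysis was possible because the replicate numbers pair no tumours.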
